A study of Mus musculus with 8 samples.

Results

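The insulin-like growth factor (IGF) genes described here are 10 of the 51822 gene symbols used. They were picked by symbol, with earlier results of these data known. The set holds the ligands Igf1 and Igf2, the receptors Igf1r and Igf2r, and the binding proteins Igfbp2 to Igfbp7. All 10 were measured in every library and all 10 were among the 12514 genes tested. The cells were mouse osteoblast progenitors, named MC3T3-E1 (an osteoblastic cell line) in the sample labels and cultured calvarial cells in the methods, grown in osteogenic medium with ascorbic acid, dexamethasone and β-glycerophosphate. Control cells received DMSO and treated cells received locamidazole (LAMZ), an aminoindazole derivative, at 1 μmol·L−1. Dexamethasone was therefore present in all cultures, control ones included. RNA was taken at day 7 and at day 14, giving 4 groups of 2 libraries. The values are RPKM, that is, reads per kilobase of gene scaled to the mapped reads of the library, which allows levels to be compared per length between genes of a library, while differences between libraries also depend on how the libraries are scaled.

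IGF1 and IGF2 are secreted growth factors that signal mainly through the receptor tyrosine kinase encoded by Igf1r, whereas Igf2r encodes a receptor that takes up IGF2 and sorts lysosomal enzymes carrying mannose 6-phosphate. The binding proteins hold IGFs outside the cell and release them, in part through cleavage by proteases such as pappalysin. In bone, osteoblasts make both ligands and several of the binding proteins, and bone matrix stores them, with IGFBP5 known for binding to the mineral.

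The libraries held an estimated 3463589 to 5832215 mapped reads, and the members had from about 15 reads (Igfbp6, LAMZ, day 7) to about 23267 (Igf2, LAMZ, day 7). The most abundant gene, Rn7s1 (a 7SL RNA), took 18.1% to 33.7% of the RPKM sum of a library, overlapping between control and LAMZ at day 7 and higher in both LAMZ libraries at day 14. The 10 osteoblast markers summed to 9666 to 11082 RPKM in control and 13197 to 13711 in LAMZ libraries at day 7. At day 14 they summed to 13267 to 13581 and 20261 to 21892. In contrast, 12 macrophage markers (of 13 listed) summed to 458.6 to 595.1 RPKM in control and 7.28 to 9.28 in LAMZ libraries at day 7, and to 1104 to 1152 and 7.14 to 7.60 at day 14. C1qa, C1qb, C1qc and Tyrobp, which mark macrophages, were at 0 in all 4 LAMZ libraries and above 0 in all control libraries, so the control libraries held macrophage transcripts, which go against the label of a single osteoblastic line. The 5 chondrocyte markers summed to 90.5 to 230.1 RPKM in control and 311.8 to 456.5 in LAMZ libraries, while 5 endothelial markers summed to at most 1.31 in any library. Col2a1 was the largest part of the chondrocyte sum, with means of 175.0 RPKM in control and 355.4 in LAMZ cells at day 7. Acan, Col9a1 and Matn1 also had higher means with LAMZ on both days. The mean of Sox9 was lower with LAMZ, at 8.14 against 7.06 RPKM at day 7 and 7.52 against 4.39 at day 14. The part of these cell types in the changes described here was not tested, and in bulk libraries a change in the number of cells of a type and a change in RNA per cell cannot be told apart.

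**Figure D1:**
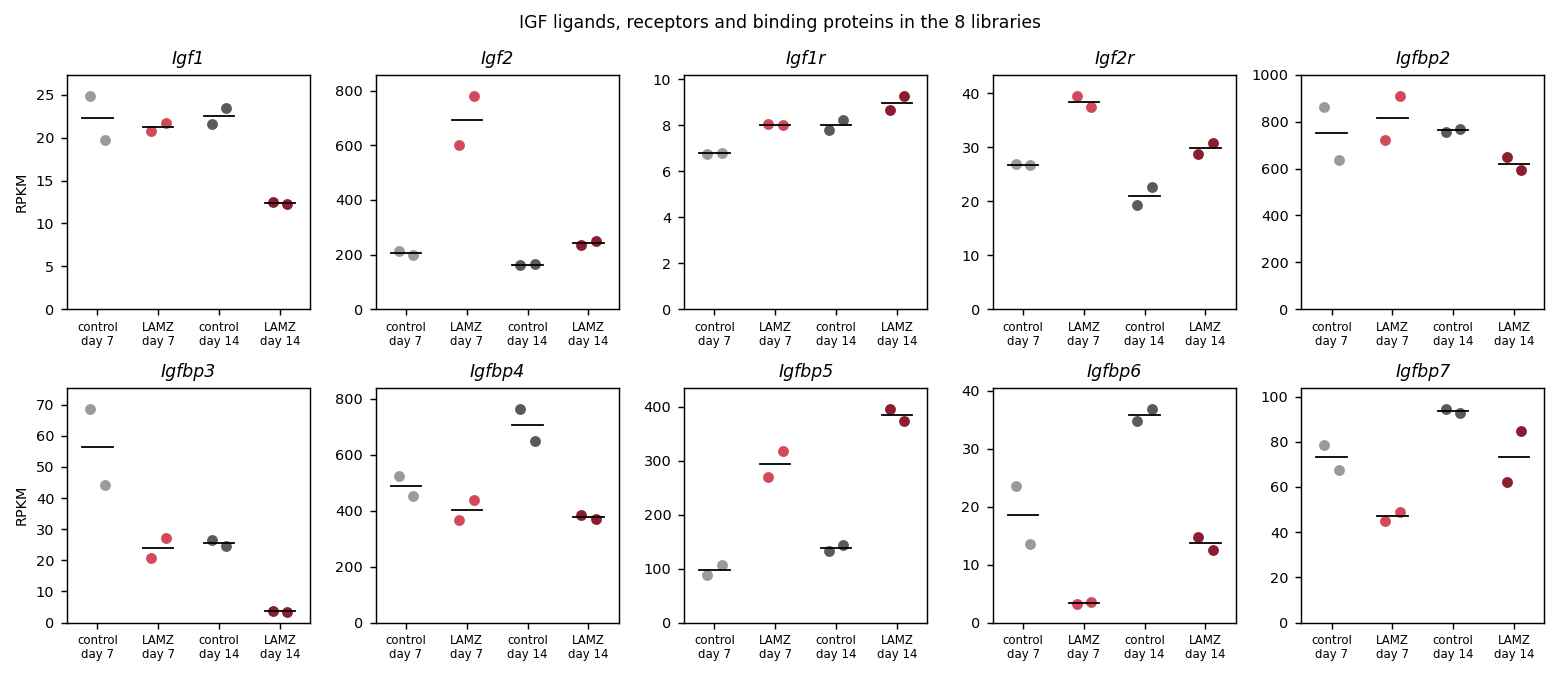
RPKM of each member (y axis, linear from 0, own scale per gene) in the 8 libraries; points are libraries, black lines are group means of 2 libraries. Igf2 stood highest in LAMZ cells at day 7 (600.9 and 780.4 RPKM), Igfbp5 was higher in every LAMZ library than in every control library, and Igfbp3 was lowest in LAMZ cells at day 14 (3.83 and 3.47 RPKM).

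With LAMZ, 6 of the 10 members passed the test (limma, adjusted p under 0.05) on day 7, 3 higher and 3 lower, and 7 passed on day 14, 3 higher and 4 lower. Igf2, Igf2r and Igfbp5 rose and Igfbp3 and Igfbp6 fell on both days. Igfbp7 also fell at day 7, and Igf1 and Igfbp4 fell at day 14. Igf1r and Igfbp2 did not pass the threshold on either day. Among all tested genes, 12.8% passed at day 7, 4.35% higher and 8.49% lower, and 23% passed at day 14, 6.96% higher and 16% lower. The median log2 fold change of the members was 0.034 at day 7 and −0.33 at day 14, against −0.080 and −0.15 over all tested genes. The LAMZ and control libraries of a day did not overlap for 8 members at day 7 and for all 10 at day 14, which was also the case for 56.3% and 64.3% of all tested genes.

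Of the ligands, Igf2 (chromosome 7, 142650766 to 142666816 on GRCm38, minus strand) was the more abundant in every library. Igf2 encodes the ligand best known from fetal growth and is an imprinted gene. Its RPKM in control cells was 214.7 and 198.8 at day 7, against 600.9 and 780.4 in LAMZ cells, a 3.34-fold rise of the mean. The log2 fold change was 1.72 with a standard error of 0.15 (adjusted p = 0.000403), higher than that of 99.7% of the tested genes. At day 14 the values were 162.9 and 164.2 in control cells and 235 and 248.7 in LAMZ cells, which is 0.56 on the log2 scale with a standard error of 0.15 (adjusted p = 0.0276). On each day the LAMZ libraries lay above the control ones, and the mean in LAMZ cells was 690.7 RPKM at day 7 and 241.9 at day 14. The change at day 14 minus that at day 7 was −1.16 on the log2 scale (95% interval −1.64 to −0.69), which did not pass the threshold (adjusted p = 0.0579), although it did with a pseudocount of 5, a stricter filter, same-sum rescaling or quantile normalization (adjusted p = 0.0361 to 0.0499). The rise at day 14 was lost when any 1 of the 4 libraries of that day was left out (adjusted p = 0.0932 without LAMZ replicate 1, 0.140 without LAMZ replicate 2, 0.0974 without control replicate 1 and 0.102 without control replicate 2) and when same-numbered libraries were paired within each day as a replicate block (adjusted p = 0.0779). With all libraries scaled to an equal sum its log2 fold change was 0.20 (adjusted p = 0.269), and after quantile normalization 0.21 (adjusted p = 0.296).

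H19, an imprinted non-coding RNA gene 72622 bases from Igf2, had 828 to 1036 RPKM in control and 2158 to 2394 in LAMZ cells at day 7, where it rose by 1.29 on the log2 scale (adjusted p = 0.00139). At day 14 it had 489.4 to 513.3 RPKM in control and 599.3 to 600.6 in LAMZ cells. This change of 0.26 did not pass the threshold (adjusted p = 0.239) and depended on the scaling. It passed at 0.45 when the libraries were centred on the median (adjusted p = 0.0434) but was −0.10 after rescaling to the same sum and −0.036 after quantile normalization. Thus the neighbouring imprinted genes both had their highest level in LAMZ cells at day 7. The change of H19 at day 14 minus that at day 7 was −1.04 (adjusted p = 0.0741). Igf2 shares its position with Gm49394, a protein-coding gene, and Mir483 on the same strand, and with Igf2os on the other strand. Igf2os had 0.487 to 1.29 RPKM in control and 1.89 to 2.55 in LAMZ cells at day 7. At day 14 it had 0.539 to 0.628 and 1.16 to 1.19. The part of these overlaps in the Igf2 values was not tested.

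Igf1 (chromosome 10, 87858265 to 87937042, plus strand), a mediator of growth hormone action on bone, behaved differently. At day 7 its RPKM was 24.9 and 19.8 in control and 20.8 and 21.7 in LAMZ cells, and the groups overlapped. The log2 fold change was −0.061 (95% interval −0.37 to 0.24, adjusted p = 0.812), and it was 0.052 after centring on the median and 0.0018 after quantile normalization, and 0.098 without control replicate 1 of day 7. At day 14 the RPKM was 21.6 and 23.5 in control and 12.5 and 12.3 in LAMZ cells. This fall of 0.81 on the log2 scale (standard error 0.13, adjusted p = 0.00410), or a mean 1.82-fold lower, kept its call under all 19 alternatives tried. The difference between the days was −0.75 (95% interval −1.18 to −0.32) and did not pass the threshold (adjusted p = 0.120). The summed macrophage markers were lower in the LAMZ libraries on both days, and their part in the change of Igf1 was not tested. Within a library, the ratio of Igf2 to Igf1 does not depend on the scaling between libraries. It was 8.63 and 10.1 in control and 28.9 and 36.0 in LAMZ cells at day 7, and 7.55 and 7.00 in control and 18.8 and 20.3 in LAMZ cells at day 14, so all 4 LAMZ libraries lay above all 4 control libraries.

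Of the receptors, Igf2r (chromosome 17, 12682406 to 12769664, minus strand), the mannose 6-phosphate and IGF2 receptor, had 26.8 and 26.7 RPKM in control and 39.5 and 37.4 in LAMZ cells at day 7. On day 14 the values were 19.4 and 22.6 RPKM in control and 28.8 and 30.8 in LAMZ cells. The groups did not overlap on either day. It rose by 0.51 at day 7 (standard error 0.12, adjusted p = 0.0283) and by 0.49 at day 14 (adjusted p = 0.0207), and the difference was −0.021 (95% interval −0.40 to 0.36, adjusted p = 0.967). With the replicate block within each day, the adjusted p was 0.0813 at day 7 and 0.0601 at day 14. With no filter on low values it was 0.0908 and 0.0585, and with the compared libraries alone 0.0621 and 0.0543. At day 7 the call was lost without any 1 of the 4 libraries of that day (adjusted p = 0.0809 to 0.163), with log2 fold changes of 0.47 without LAMZ replicate 1, 0.55 without LAMZ replicate 2, 0.51 without control replicate 1 and 0.50 without control replicate 2. At day 14 it was lost without control replicate 1 (log2 fold change 0.38, adjusted p = 0.0965), LAMZ replicate 1 (0.53, adjusted p = 0.0661) or LAMZ replicate 2 (0.44, adjusted p = 0.115). After rescaling to the same sum its log2 fold change was 0.21 at day 7 (adjusted p = 0.249) and 0.14 at day 14 (adjusted p = 0.399). The antisense RNA Airn, which overlaps Igf2r and silences it on the paternal chromosome, had 1.33 to 2.53 RPKM, and whether the counting used strand is not given in the sources used here.

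Igf1r (chromosome 7, 67952827 to 68233668, plus strand), the signalling receptor, was the least abundant member in both control groups. It had 6.77 and 6.79 RPKM in control and 8.04 and 8.02 in LAMZ cells at day 7, and 7.81 and 8.24 in control and 8.68 and 9.28 in LAMZ cells at day 14. The libraries did not overlap on either day, but the differences were small. The log2 fold change was 0.22 at day 7 (95% interval −0.031 to 0.46, adjusted p = 0.234) and 0.14 at day 14 (95% interval −0.10 to 0.39, adjusted p = 0.367), and after rescaling to the same sum it was −0.054 and −0.18. Centred on the median, the day 14 value was 0.33 and passed (adjusted p = 0.0478), so its direction at day 14 depended on the scaling. The ratio of Igf2r to Igf1r within a library was 3.97 and 3.93 in control and 4.92 and 4.67 in LAMZ cells at day 7, and 2.48 and 2.75 in control and 3.32 and 3.31 in LAMZ cells at day 14. Thus on each day the LAMZ libraries held more Igf2r mRNA per Igf1r mRNA than the control libraries.

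**Figure D2:**
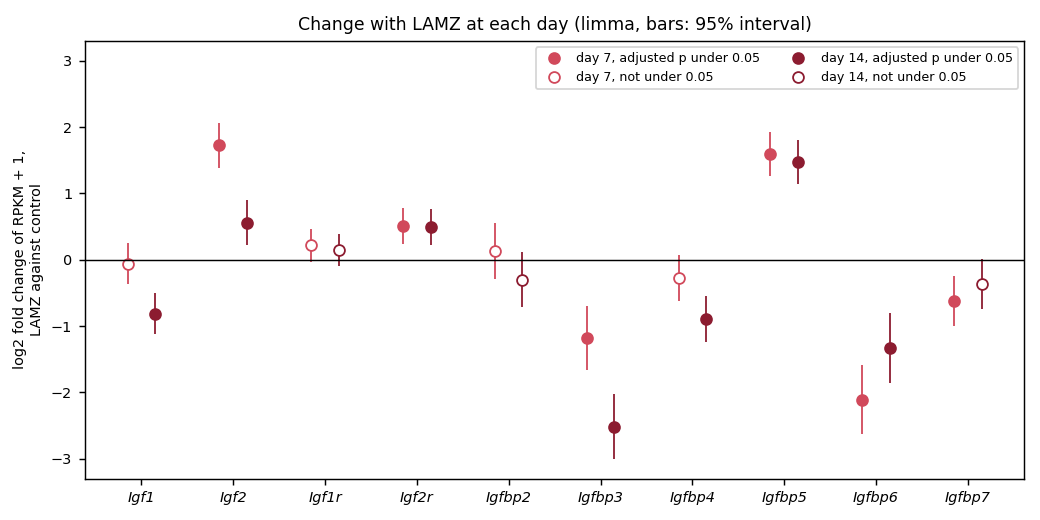
Log2 fold change of RPKM + 1 with LAMZ against control (y axis) for the 10 members (x axis) at day 7 and day 14; bars are 95% intervals and filled points have an adjusted p under 0.05. Igf2 and Igfbp5 had the largest rises (1.72 and 1.60 at day 7) and Igfbp6 and Igfbp3 the largest falls (−2.11 at day 7 and −2.51 at day 14).

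All 10 members were matched by symbol to RefSeq promoters of GRCm38.p6. The 250 bases before the start are shown for the binding protein genes with the largest changes, Igfbp5, Igfbp3 and Igfbp6, and for Igfbp2 (the first of its 2 promoters), the neighbour of Igfbp5 whose change did not pass the threshold. They lie at chr1:72874866-72875115 (minus strand), chr11:7213924-7214173 (minus strand), chr15:102143936-102144185 (plus strand) and chr1:72824230-72824479 (plus strand). The start is that of RefSeq and can differ from the GENCODE gene positions given here. The Igfbp6 window ends at 102144185, short of the GENCODE start at 102144362. The Igfbp5 window overlaps the 5′ end of the GENCODE gene at 72874884. Capitals mark 3 motifs searched on both strands, the TATA box TATAAA, the GC box GGGCGG and the E box CANNTG.
Igfbp5: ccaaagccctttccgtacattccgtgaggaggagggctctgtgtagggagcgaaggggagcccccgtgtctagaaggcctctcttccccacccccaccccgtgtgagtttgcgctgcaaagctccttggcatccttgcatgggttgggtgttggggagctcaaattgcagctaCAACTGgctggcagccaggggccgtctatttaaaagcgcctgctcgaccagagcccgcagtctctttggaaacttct
Igfbp3: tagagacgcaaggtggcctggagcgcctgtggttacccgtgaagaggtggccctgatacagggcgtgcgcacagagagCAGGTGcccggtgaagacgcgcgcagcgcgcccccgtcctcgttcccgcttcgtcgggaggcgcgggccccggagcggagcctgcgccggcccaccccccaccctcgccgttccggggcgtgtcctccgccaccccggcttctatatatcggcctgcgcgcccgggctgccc
Igfbp6: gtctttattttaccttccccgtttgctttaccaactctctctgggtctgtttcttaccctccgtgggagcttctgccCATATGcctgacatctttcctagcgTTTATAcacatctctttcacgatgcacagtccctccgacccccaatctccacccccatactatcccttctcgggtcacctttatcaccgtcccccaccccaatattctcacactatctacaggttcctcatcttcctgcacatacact
Igfbp2: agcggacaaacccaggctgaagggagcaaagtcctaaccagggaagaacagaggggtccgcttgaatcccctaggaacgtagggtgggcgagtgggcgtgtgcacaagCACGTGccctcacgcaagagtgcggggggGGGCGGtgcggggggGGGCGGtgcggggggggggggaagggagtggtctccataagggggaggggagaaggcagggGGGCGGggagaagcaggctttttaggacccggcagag
Each window held 1 E box, as did at least 1 in 66.2% of all 32851 promoters of this length. The Igfbp2 window held 3 GC boxes and the other windows shown none, against at least 1 in 32.7% of all promoters. Among members not shown, GC boxes were in the windows of Igf2r (3), Igfbp7 (4), Igf1r (2) and Igf2 promoters 3 and 4 (1 and 2). Those of Igf1, Igfbp4 and Igf2 promoters 1 and 2 had none. TATAAA was found in Igfbp6, 148 bases before the start on the other strand, and in none of the other windows shown, against 12.4% of all promoters. The AP-1 site TGACTCA was in none of the windows shown, against 4.46% of all promoters. The second Igfbp2 promoter, not shown, held this site 39 bases before its start and held no GC box. A missing match says only that these letters are not in the window, and a match is a description of the letters, and their part in the changes was not tested.

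Among the binding proteins, Igfbp5 rose most. Igfbp5 (chromosome 1, 72857932 to 72874884, minus strand) encodes a binding protein abundant in bone. Its RPKM was 87.2 and 105.9 in control and 269.8 and 318.4 in LAMZ cells at day 7, and 132.4 and 144.5 in control and 395.5 and 373.6 in LAMZ cells at day 14. All 4 LAMZ libraries lay above all 4 control libraries. It rose by 1.60 on the log2 scale at day 7, with a standard error of 0.14 (adjusted p = 0.000535), and by 1.47 at day 14 (adjusted p = 0.000384). These rises of 3.05-fold and 2.78-fold held under all 19 alternatives. The change differed between the days by −0.13 (95% interval −0.60 to 0.34, adjusted p = 0.797).

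Igfbp2 (chromosome 1, 72824503 to 72852474, plus strand) lies 5457 bases from Igfbp5, with the 3′ ends of both genes facing each other, and is a broadly made binding protein. It had the highest mean RPKM of the members in all 4 groups, with 863.6 and 636.5 in control and 721.8 and 910.2 in LAMZ cells at day 7, and 754.9 and 770.4 in control and 648.4 and 592.1 in LAMZ cells at day 14. The groups overlapped at day 7 and were apart at day 14. The log2 fold change was 0.13 at day 7 (95% interval −0.29 to 0.55, adjusted p = 0.696) and −0.30 at day 14 (95% interval −0.72 to 0.12, adjusted p = 0.274). After rescaling to the same sum and after quantile normalization it was −0.18 and −0.098 at day 7, and at day 14 it passed the threshold at −0.66 and −0.68 (adjusted p = 0.0138 and 0.00798). In these settings 46.3% and 21.4% of all tested genes passed at day 14. The ratio of Igfbp5 to Igfbp2 within a library was 0.101 to 0.188 in the control and 0.350 to 0.631 in the LAMZ libraries.

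Igfbp3 and Igfbp6 fell most. Igfbp3 (chromosome 11, 7206086 to 7213923, minus strand), which encodes the main carrier of IGFs in blood, had 68.5 and 44.2 RPKM in control and 20.8 and 27.0 in LAMZ cells at day 7. At day 14 it had 26.6 and 24.5 RPKM in control and 3.83 and 3.47 in LAMZ cells, about 70 and 53 reads. On the log2 scale the change was −1.18 at day 7 (standard error 0.21, adjusted p = 0.0106) and −2.51 at day 14 (adjusted p = 0.000177), 2.36-fold and 7.00-fold lower on average. The fall at day 14 held under all 19 alternatives, while the one at day 7 held under 16 of 19. It was lost with no filter on low values (adjusted p = 0.135) and with the compared libraries alone (adjusted p = 0.0754). It was also lost without LAMZ replicate 1 of day 7 (log2 fold change −0.999). The difference between the days was −1.33 (95% interval −2.02 to −0.65, adjusted p = 0.0990). Within a library, the ratio of Igfbp5 to Igfbp3 was 1.27 and 2.40 in control and 13.0 and 11.8 in LAMZ cells at day 7. At day 14 it was 4.98 and 5.89 in control and 103.1 and 107.7 in LAMZ cells.

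Igfbp6 (chromosome 15, 102144362 to 102149511, plus strand), a binding protein known to prefer IGF2 over IGF1, had 23.6 and 13.5 RPKM in control and 3.16 and 3.62 in LAMZ cells at day 7. At this level the LAMZ libraries held about 15 and 21 reads. On day 14 the values were 34.8 and 36.8 RPKM in control and 14.8 and 12.5 in LAMZ cells. This was a change of −2.11 on the log2 scale at day 7 (standard error 0.23, adjusted p = 0.00120) and −1.33 at day 14 (adjusted p = 0.00510), 5.47-fold and 2.62-fold lower on average. The difference between the days was 0.77 (95% interval 0.029 to 1.52, adjusted p = 0.290). Thus the lowest level of Igfbp6 was in LAMZ cells at day 7, whereas that of Igfbp3 was in LAMZ cells at day 14.

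Igfbp4 (chromosome 11, 99041244 to 99054392, plus strand), an inhibitory binding protein and the main substrate of pappalysin, had 522.8 and 452.2 RPKM in control and 368.2 and 439.3 in LAMZ cells at day 7. On day 14 the values were 763.2 and 651.1 RPKM in control and 385.7 and 371.1 in LAMZ cells. The groups were apart on both days. Its change on the log2 scale was −0.27 at day 7 (95% interval −0.62 to 0.070, adjusted p = 0.280) and −0.90 at day 14 (standard error 0.15, adjusted p = 0.00440), and the difference between the days was −0.62 (adjusted p = 0.204). Rescaled to the same sum, it also passed at day 7 (−0.58, adjusted p = 0.0176), as did 28.7% of all tested genes. Igfbp7 (chromosome 5, 77349240 to 77408041, minus strand) encodes a related protein that binds IGFs weakly, and the gene overlaps Polr2b on the other strand (4.08 to 9.49 RPKM). It had 78.8 and 67.3 RPKM in control and 45.0 and 49.1 in LAMZ cells at day 7, and 94.4 and 92.9 in control and 62.0 and 84.7 in LAMZ cells at day 14. For Igfbp7 the change was −0.62 on the log2 scale at day 7 (adjusted p = 0.0445) and −0.37 at day 14 (95% interval −0.74 to 0.011, adjusted p = 0.146). Rescaled to the same sum, it also passed at day 14 (−0.73, adjusted p = 0.00769), as did 46.3% of all tested genes. Relative to the median of all tested genes, Igfbp7 was then at −0.30. Without LAMZ replicate 1 of day 14 that day's change was −0.14 (adjusted p = 0.597), and without LAMZ replicate 2 it was −0.59 (adjusted p = 0.0598). The day 7 call of Igfbp7 held under 6 of 19 alternatives only. It was lost without control replicate 1 (−0.51), control replicate 2 (−0.73), LAMZ replicate 1 (−0.56) or LAMZ replicate 2 (−0.68) of day 7, without either control library of day 14 (adjusted p = 0.0688 and 0.0692), and when the replicate number was a block over the 4 groups or within a day (adjusted p = 0.0619 and 0.0923).

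**Figure D3:**
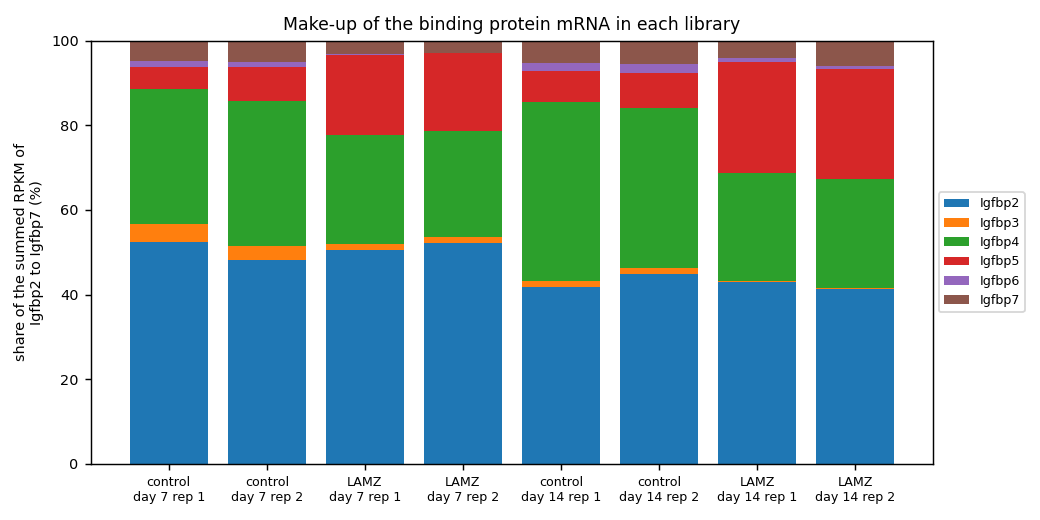
Share of the summed RPKM of Igfbp2 to Igfbp7 taken by each gene (y axis, percent) in the 8 libraries (x axis). Igfbp5 took 5.30% to 8.40% in the control libraries and 18.2% to 26.2% in the LAMZ libraries.

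The sum over the 6 binding proteins was 1320 to 1806 RPKM in the control and 1429 to 1748 in the LAMZ libraries, so these ranges overlapped. What differed was its make-up. Igfbp2 and Igfbp4 together took 82.5% to 84.3% of the sum in the control libraries, 76.3% and 77.2% in LAMZ cells at day 7 and 68.5% and 67.0% at day 14. The share of Igfbp5 was 5.30% and 8.03% in control and 18.9% and 18.2% in LAMZ cells at day 7, and 7.33% and 8.40% in control and 26.2% and 26.0% in LAMZ cells at day 14. Igfbp3 took 4.17% and 3.35% of the sum in control cells at day 7 and 0.254% and 0.241% in LAMZ cells at day 14. In the order of mean levels, Igfbp5 stood below Igfbp2, Igfbp4 and Igf2 in control cells on both days. In LAMZ cells at day 14 it was second to Igfbp2, and its libraries overlapped those of Igfbp4. In LAMZ cells at day 7, Igf2 was second to Igfbp2 with overlapping libraries. The other neighbours in this order with overlapping libraries were Igfbp7 and Igfbp3, and Igf1 and Igfbp6, in control cells at day 7, Igfbp3 and Igf1 in LAMZ cells at day 7, Igfbp2 and Igfbp4, and Igf1 and Igf2r, in control cells at day 14, and Igfbp6 and Igf1 in LAMZ cells at day 14.

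From day 7 to day 14, only Igfbp3 passed the threshold in control cells, where 4.86% of all tested genes did (2.46% higher and 2.4% lower), with a fall of 1.08 on the log2 scale (adjusted p = 0.0331). This call was lost with 7 of 8 libraries left out in turn. These were all LAMZ libraries of both days, both control libraries of day 14 and control replicate 1 of day 7 (−0.77). It was also lost with a replicate block within each treatment (adjusted p = 0.0543), with no filter on low values (0.244) and with the compared libraries alone (0.168). Igfbp6 had a log2 fold change of 0.96 in control cells that missed the threshold (adjusted p = 0.0557), and it passed under 6 of 19 alternatives, among them without control replicate 1 of day 7 (1.34, adjusted p = 0.0224) and after rescaling to the same sum (1.22, adjusted p = 0.0146). Rescaled in this way, Igfbp4 (0.79), Igfbp5 (0.78) and Igfbp7 (0.61) also passed in control cells, as did Igfbp5 in LAMZ cells (0.59). This rescaling moved the median log2 fold change of all tested genes from −0.045 to 0.16 in control cells and from −0.11 to 0.031 in LAMZ cells. Under it, 9.07% of all tested genes passed in control cells, 85.6% of them higher. In LAMZ cells 12.2% passed, 63.5% of them higher. Without rescaling, 5 members passed in LAMZ cells, against 14.4% of all tested genes (5.1% higher and 9.26% lower). Igf2 fell by 1.50 (adjusted p = 0.00101), Igfbp3 by 2.41 (adjusted p = 0.000745) and Igf1 by 0.73 (adjusted p = 0.0112), while Igfbp6 rose by 1.74 (adjusted p = 0.00338) and Igfbp7 by 0.61 (adjusted p = 0.0435). The calls of Igf1 and Igfbp7 were lost without LAMZ replicate 1 of day 7 (adjusted p = 0.0613 and 0.188), LAMZ replicate 2 of day 7 (0.0850 and 0.137) and LAMZ replicate 2 of day 14 (0.0730 and 0.222). That of Igf1 was also lost without LAMZ replicate 1 of day 14 (0.0558), and that of Igfbp7 without control replicate 1 or 2 of day 14 (0.0644 and 0.0646) and with the replicate block across all groups (0.0600). None of the members passed the test of the difference between these changes, which is the same as the difference of the LAMZ effect between days, where 0.623% of all tested genes passed (0.312% higher and 0.312% lower). By unadjusted p, 5 of them were under 0.05 (Igf1, Igf2, Igfbp3, Igfbp4 and Igfbp6), against 16.5% of all tested genes.

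**Figure D4:**
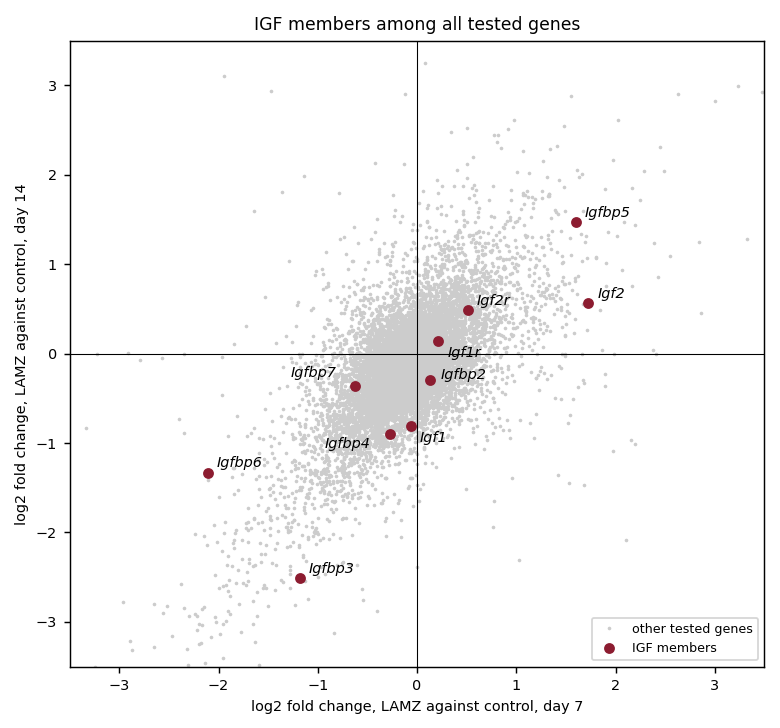
Log2 fold change of RPKM + 1 with LAMZ against control at day 7 (x axis) and day 14 (y axis) for the tested genes (grey) and the 10 IGF members (red); 36 genes lie outside the limits of ±3.5. Igf2 and Igfbp5 lie to the upper right, Igfbp3 and Igfbp6 to the lower left, and Igf1 lies near 0 at day 7 and below 0 at day 14.

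The tested genes outside the members whose pattern was most like that of each changed member, by Pearson's r of log2(RPKM + 1) over the 8 libraries and among 5594 genes with a mean RPKM of at least 5, were as follows. These values describe 8 libraries in 4 groups and were chosen as the highest of many. Igfbp5 was closest to Dmp1, a matrix protein of mature osteoblasts and osteocytes (r = 0.992), and to Fosl2 (0.991) and Pdgfa (0.989). Igfbp3 was closest to Fzd2 (r = 0.995), a Wnt receptor, C1qtnf3 (0.991) and Cdh11 (0.990), a cadherin of mesenchymal cells. Igf1 was closest to Prrx1 (r = 0.992), a transcription factor of skeletal progenitors, Commd10 (0.989) and Spry1 (0.989), an inhibitor of receptor tyrosine kinase signalling. Igf2 was closest to Nrp2 (r = 0.978), Lman1 (0.974) and Tnfrsf19 (0.970), and Igf2r to Colgalt1 (0.984), Tnc (0.983) and Slc27a3 (0.983). Igfbp4 was closest to Cpxm2 (r = 0.986), Tbc1d22a (0.985) and Gfra2 (0.983), Igfbp6 to Tns3 (0.990), Aplp2 (0.988) and Sat1 (0.987), and Igfbp7 to Cx3cl1 (0.986), Pip4k2c (0.972) and Samd4 (0.972).

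The other genes of the pathway were followed in 4 lists. Of 12 other IGF binders, binding protein proteases and their inhibitors, 8 were tested, of which 2 were higher and 1 lower with LAMZ at day 7, and 1 higher and 2 lower at day 14. Over all tested genes, 4.35% were higher and 8.49% lower at day 7, and 6.96% and 16% at day 14. The median log2 fold change of this list was −0.0041 and −0.21, against −0.080 and −0.15 over all tested genes. Pappa, which encodes the protease that cleaves IGFBP4, had 7.02 to 7.54 RPKM in control and 6.46 to 8.06 in LAMZ cells at day 7, and 7.26 to 8.45 in control and 4.48 to 4.54 in LAMZ cells at day 14, where it fell by 0.68 on the log2 scale (adjusted p = 0.00970). This call was lost without control replicate 2 (adjusted p = 0.0637), LAMZ replicate 1 (0.0511) or LAMZ replicate 2 (0.0577) of day 14. Stc2, whose product inhibits this protease, had 1.59 to 2.62 RPKM in control and 5.01 to 6.12 in LAMZ cells at day 7, and 3.31 to 3.85 and 10.2 to 10.4 at day 14. It rose by 1.09 and 1.30 (adjusted p = 0.00717 and 0.00188), and the day 7 call was lost without LAMZ replicate 1 of that day (0.97, adjusted p = 0.0674). Thus at day 14 Pappa, its substrate Igfbp4 and the inhibitor Stc2 had log2 fold changes of −0.68, −0.90 and 1.30. The proteases Pappa2 and Htra1 of this list were more abundant. Pappa2 had 45.0 to 46.7 RPKM in control and 63.9 to 69.5 in LAMZ cells at day 7. At day 14 it had 61.2 to 66.7 and 52.0 to 65.6. Htra1 had 113.2 to 125.8 RPKM in control and 113.0 to 126.3 in LAMZ cells at day 7. At day 14 it had 121.7 to 138.7 and 128.6 to 133.9. Cleavage of the binding proteins was not tested. Esm1, a secreted proteoglycan with an IGF binding protein domain, had 3.92 to 9.36 RPKM in control and 1.90 to 2.65 in LAMZ cells at day 7, and 36.5 to 38.1 and 9.48 to 10.8 at day 14, and fell by 1.13 and 1.78 (adjusted p = 0.0474 and 0.00506). The day 7 call held under 6 of 19 alternatives and was lost with any library left out but control replicate 1 of day 7, being −0.60 without control replicate 2 of day 7 (adjusted p = 0.0886). Igfals, the third partner in the circulating IGF complex, had 0.274 to 1.78 RPKM in all libraries and did not pass (adjusted p = 0.502 and 0.495). Igfbp1 was below the filter, with 0 to 0.435 RPKM in control libraries and 0 in all 4 LAMZ libraries.

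Of 41 genes of insulin and IGF signal transduction, 40 were tested. At day 7, 4 were higher and 4 lower and 32 did not pass, and at day 14, 3 were higher and 8 lower and 29 did not pass. Over all tested genes, 4.35% were higher and 8.49% lower at day 7, and 6.96% and 16% at day 14. The median log2 fold change of the list was −0.12 and −0.27, against −0.080 and −0.15 over all tested genes. Foxo1, a transcription factor restrained by IGF signalling, rose on both days, by 1.27 and 0.79 (adjusted p = 0.00188 and 0.00798), from 2.73 to 2.82 RPKM in control to 7.71 to 8.55 in LAMZ cells at day 7, and from 3.16 to 4.01 in control to 6.11 to 7.80 in LAMZ cells at day 14. The day 14 call was lost without control replicate 1 (0.66, adjusted p = 0.0516) or LAMZ replicate 2 (0.64, adjusted p = 0.0592) of that day. Socs2, a feedback inhibitor of growth hormone signalling, fell on both days, by 0.76 and 1.20 (adjusted p = 0.0196 and 0.00170), with 2.34 to 4.41 RPKM in control and 1.03 to 1.14 in LAMZ libraries. At day 7 the call was lost without any 1 of the 4 libraries of that day (adjusted p = 0.0541 and 0.0775 without control replicates 1 and 2, 0.106 and 0.0868 without LAMZ replicates 1 and 2). Grb10, an imprinted adaptor that restrains these receptors, rose on both days, by 0.57 and 0.37 (adjusted p = 0.0152 and 0.0458), but neither call held after rescaling to the same sum (0.27 and 0.015, adjusted p = 0.139 and 0.929) or quantile normalization (0.40 and 0.38, adjusted p = 0.0700 and 0.0602). The day 7 call was lost without control replicate 1 (adjusted p = 0.0583), LAMZ replicate 1 (0.0750) or LAMZ replicate 2 (0.102) of that day, and the day 14 call without any library but the control ones of day 7 (0.0755 to 0.193). Eif4ebp1, a repressor of translation controlled by mTOR, had 13.9 to 14.9 RPKM in control and 18.04 to 18.97 in LAMZ cells at day 7 (log2 fold change 0.34, adjusted p = 0.0798), and 18.7 to 18.8 and 58.6 to 63.9 at day 14 (1.66, adjusted p = 6.3e-05). This difference between the days, 1.31, passed the threshold (adjusted p = 0.0257), but missed it without any 1 of the 8 libraries (1.25 to 1.38, adjusted p = 0.0522 to 0.122) and under either replicate block. Irs1, an adaptor of the IGF1 and insulin receptors, rose at day 7 and fell at day 14. It had 38.2 to 38.3 RPKM in control and 49.9 to 53.4 in LAMZ cells at day 7 (0.42, adjusted p = 0.0344), and 35.0 to 35.4 and 25.3 to 26.1 at day 14 (−0.44, adjusted p = 0.0186). The rise at day 7 was lost without any library but the control ones of day 14 (adjusted p = 0.0611 to 0.173) and was 0.12 after rescaling to the same sum (adjusted p = 0.410). The fall at day 14 was lost without any 1 of the 4 libraries of that day (adjusted p = 0.0661 to 0.0940). The difference between the days was −0.86 and missed the threshold (adjusted p = 0.0527), but passed it under 4 of 18 alternatives. Insr, the insulin receptor, and Irs2 did not pass on either day, with log2 fold changes of 0.52 and −0.051 for Insr (adjusted p = 0.0565 and 0.835) and −0.13 and −0.28 for Irs2 (adjusted p = 0.571 and 0.165).

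**Figure D5:**
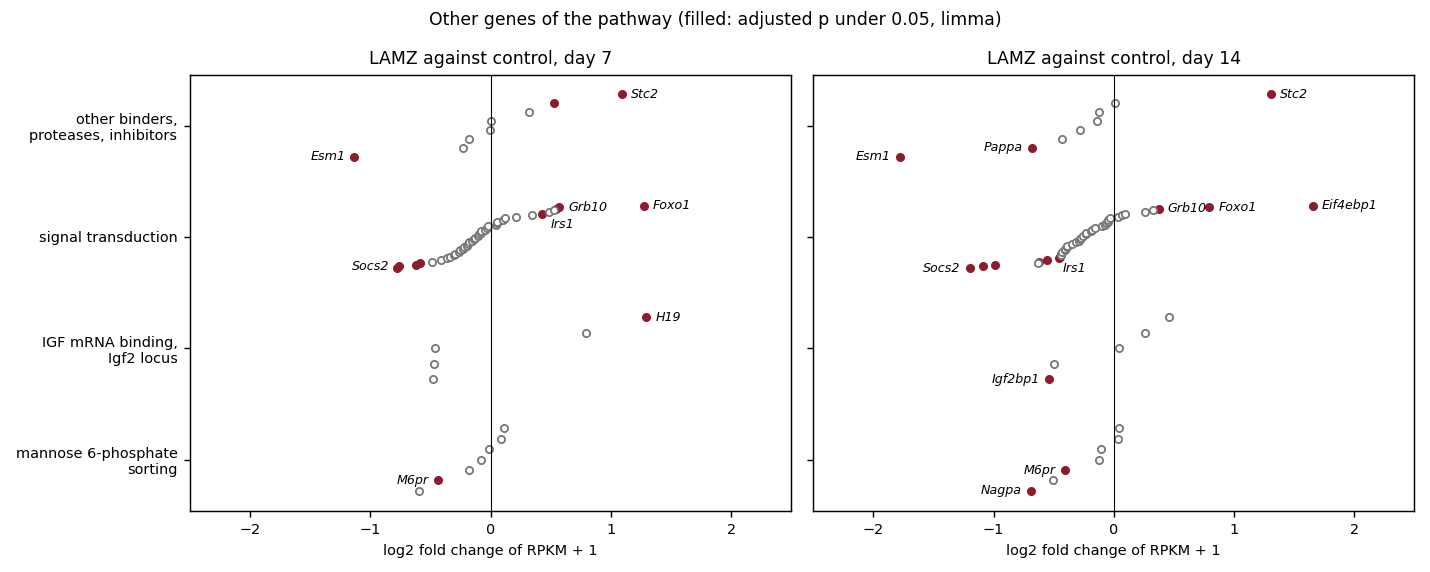
Log2 fold change of RPKM + 1 with LAMZ against control (x axis) for the tested genes of 4 pathway lists (rows, genes ordered by change within a row) at day 7 and day 14; filled points have an adjusted p under 0.05 and the named genes among them are labelled. Stc2 and Foxo1 lie to the right and Esm1 and Socs2 to the left on both days, and Irs1 changes sides.

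Of the 5 genes that bind IGF mRNAs or lie at the Igf2 locus, H19 was the only one higher at day 7, and Igf2bp1, an RNA-binding protein of fetal tissues, the only one that passed at day 14. It fell by 0.54 (adjusted p = 0.0230) from 2.31 to 2.38 RPKM in control to 1.29 to 1.31 in LAMZ cells, and the call was lost without any 1 of the 4 libraries of day 14 (adjusted p = 0.0752 to 0.0947). Of 7 sorting partners of Igf2r in the mannose 6-phosphate pathway, 1 was lower at day 7 and 2 at day 14. Their median log2 fold change was −0.084 and −0.12, against −0.080 and −0.15 over all tested genes. Beside the counts of both lists, 4.35% of all tested genes were higher and 8.49% lower at day 7, and 6.96% and 16% at day 14. M6pr, the other mannose 6-phosphate receptor, had 15.01 to 15.79 RPKM in control and 10.4 to 11.9 in LAMZ cells at day 7, and 13.0 to 14.0 and 9.53 to 10.3 at day 14. It fell by 0.44 and 0.41 (adjusted p = 0.0475 and 0.0409), the opposite direction to Igf2r, but the calls held under 4 and 6 of 19 alternatives. Without any 1 library the day 7 call was lost (adjusted p = 0.0642 to 0.253), and the day 14 call was lost without any library but the control ones of day 7 (0.0578 to 0.184). Nagpa, which uncovers the mannose 6-phosphate tag, fell by 0.69 at day 14 (adjusted p = 0.0231), and this was lost without control replicate 1 (−0.55, adjusted p = 0.119) or LAMZ replicate 2 (−0.52, adjusted p = 0.140) of that day.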

How the data were processed

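RNA sequencing of 8 libraries (2 in each of 4 groups, taken from the sample labels) was used. The authors sequenced on an Ion Proton, assigned reads to genes with CLC Genomics Workbench (version not given in the sources used here; mm10 per the submitters' processing notes) and deposited 1 RPKM value per gene symbol and library, scaled within the library. Of the 51826 symbols per file, 4 that read as dates in place of gene names were left out. Positions are from GENCODE M21 (GRCm38) and promoters from RefSeq. Mapped reads were estimated from the low RPKM of genes with 1 exon, as the total that turns them into whole reads (97.0% to 97.9% of 914 to 1552 values per library), and reads per member are estimates from this and the annotated exon length.

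A gene was tested if 2 or more libraries reached an RPKM of 1, and the 12514 such genes were fitted on log2(RPKM + 1) in limma 3.58.1 (R 4.3.3) as 4 groups in one fit, with a mean-variance trend and no covariates, with adjustment by Benjamini-Hochberg over all tested genes and a threshold of 0.05. Fold changes on this scale understate those of low genes. Where the text says fold, it is the ratio of mean RPKM. The labels do not say that the 2 libraries of a group came from separate cultures, so p-values measure the spread between libraries, which may be technical. An exact permutation test of 2 libraries against 2 cannot pass the threshold. The scripts were tested on simulated data. Members, lists and tests were chosen with earlier results of these data known. All members are named. Of the other lists, the text names those fixed by identity and up to 3 per list with the largest change among those past the threshold with groups apart, and for each changed member the 3 genes most like it. Pappa2 and Htra1 are also named, as proteases more abundant than Pappa. In addition, the lists of cell type markers were summed per library, and their genes were counted in the same fit. With LAMZ, 6 of 10 osteoblast markers were higher on both days, and 10 and 11 of 12 macrophage markers were lower at day 7 and day 14. Of the chondrocyte markers, 4 of 5 were higher on both days and 1 (Sox9) was lower at day 14. Of 3 tested adipocyte markers, 0 and 2 were lower, the 1 tested muscle marker was higher at day 14, and no endothelial marker was tested. Over all tested genes, 4.35% were higher and 8.49% lower at day 7, and 6.96% and 16% at day 14. Muscle markers summed to 0.791 to 7.17 RPKM and adipocyte markers to 2.03 to 60.5, the highest in 1 control library of day 14. Alternatives were other pseudocounts (0.1 and 5), filters, scalings, no trend, the compared libraries alone, replicate blocks and each library left out. A library left alone in its group was assumed to vary like the others.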

Additional observations from a re-analysis of the deposited data

Results flagged for a closer look

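The change of Eif4ebp1 with LAMZ differed between the days by limma's test of the difference itself, being larger at day 14 than at day 7 by 1.31 on the log2 scale (standard error 0.15, adjusted p = 0.0257). The LAMZ libraries lay above the control libraries on both days. The difference passed the threshold under 8 of 18 alternatives and was 1.25 to 1.38 with each library left out in turn, where the adjusted p was 0.0522 to 0.122. No group had enough libraries for a search for outlying ones.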

How the results depend on the processing

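Under 19 alternatives (18 for the difference between days, and for 5 low genes that a stricter filter removed), the calls of Igf2, Igfbp5 and Igfbp6 at day 7 and of Igf1, Igfbp3 and Igfbp5 at day 14 all held. The number of members called at day 7 (6) was 3 with no filter on low values and 3 with the compared libraries alone. Of all tested genes, 1% and 4.99% passed in these settings, against 12.8% in the main fit. At day 14 (7) the number of members was 3 with no filter, where 2.94% of all tested genes passed, against 23% in the main fit. For control cells over time (1) the number of members was 2 with a pseudocount of 5, with an RPKM of at least 5 or centred on the median. It was 3 after quantile normalization, 5 with the libraries rescaled to the same sum, and 0 with no filter or with the compared libraries alone. The shares of all tested genes in these settings were, in turn, 5.79%, 10.1%, 5.67%, 6.26%, 9.07%, 0.34% and 0%, against 4.86% in the main fit. For LAMZ cells over time (5) the number was 2 with no filter, where 1.23% of all tested genes passed, against 14.4% in the main fit. For the difference between days (0) it was 1 with a pseudocount of 5, the stricter filter, same-sum rescaling or quantile normalization. There, 1.33%, 2.05%, 0.807% and 0.903% of all tested genes passed, against 0.623% in the main fit. With no filter, 51822 genes were tested. With each library left out in turn, these counts ranged from 3 to 6, 5 to 7, 0 to 1, 3 to 5 and 0 to 0.

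Same-sum rescaling moved the median log2 fold change of all tested genes from −0.080 to −0.31 at day 7 and from −0.15 to −0.43 at day 14. Under this rescaling 28.7% and 46.3% of all tested genes passed. Of these called genes, 8.69% and 8.16% were higher, against 53.5% and 56.3% when centred. With same-sum rescaling, the sign turned for Igf1r (−0.054 at day 7, −0.18 at day 14), Igfbp2 at day 7 (−0.18), H19 at day 14 (−0.10) and Igfbp4 over time in LAMZ cells (0.11). Centred on the median, it turned for Igf1 (0.052) and Pappa (0.10) at day 7, Insr at day 14 (0.14), Igfbp4 over time in LAMZ cells (0.014) and the difference between days of Igf1r (0.0063) and Igf2r (0.056). After quantile normalization it turned for Igf1 (0.0018), Igfbp2 (−0.098) and Pappa (0.081) at day 7, Insr (0.15) and H19 (−0.036) at day 14 and the difference between days of Igf2r (0.0022). None of these values had passed the threshold, and the cause was not tested. Among genes outside the members, the scaling also moved calls. Centred, Irs1 (−0.25) lost its call at day 14, M6pr on both days (−0.32 and −0.22), Esm1 at day 7 (−1.02) and Igf2bp1 (−0.35) and Nagpa (−0.50) at day 14, while Insr (0.64) and Eif4ebp1 (0.45) passed at day 7. Quantile normalization moved these in the same way except for Irs1. With the same sum, Igf2bp1 (−0.69) and Nagpa (−0.83) passed at day 7 and Irs2 (−0.57) at day 14.

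With each library left out in turn, values that changed sign were, at day 7, Igf1 (−0.22 to 0.098), Igfbp2 (−0.091 to 0.35), Igfals (−0.052 to 0.69) and Pappa (−0.15 to 0.13), and at day 14, Insr (−0.17 to 0.068). Over time they were Igf1 (−0.14 to 0.18) and Igfbp2 (−0.18 to 0.26) in control cells and Igfbp4 (−0.21 to 0.039) in LAMZ cells, and for the difference between days Igf2r (−0.13 to 0.087) and Igfbp5 (−0.27 to 0.0076). Over all single-gene values and alternatives, 1298 kept direction and side of the threshold, 190 lost the call, 34 gained it and 32 changed sign.

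Same-numbered libraries did not deviate together (correlations of −0.034 to 0.078 between groups), so the replicate number was not taken as a pairing. With a replicate block within each day or treatment, 0 members were called in control cells over time, 984 of all tested genes were called at day 7 and 2171 at day 14, against 1607 and 2878 without it. Estimates for Igfbp6 at day 7 and Igfbp3 at day 14 rested on the fewest reads in LAMZ cells.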
